A study of Mus musculus with 2 samples.

Results

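The genes described here are 37 genes of ciliary transport and of the photoreceptor cilium, of 31249 genes with a symbol in the table. They were chosen by name as intraflagellar transport genes, BBSome genes and genes of the connecting cilium, a rule that uses no measured value. The genes were chosen with earlier results of these data known. They were compared between 2 libraries, with a single one in each group. One came from mouse neural retinal progenitor cells (mNRPCs) of the C57BL/6 strain at passage 24. By the study's methods these cells came from the neural retina of adult mice and grew on Matrigel in DMEM/F12 with N2, B27, bFGF (a fibroblast growth factor) and CHIR99021, a small molecule that blocks the kinase GSK3. The other came from C57BL/6 retina tissue, for which the labels give no age. The mNRPC library stands for 1 culture after long expansion and the retina library for 1 tissue sample, so the difference between them has no replicate error and no test was made. In bulk RNA, fewer cells of a type and less RNA per cell cannot be told apart.

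The primary cilium is a microtubule rod that most cells can build on their basal body. Intraflagellar transport (IFT) carries cargo along it, with the IFT-B complex moved outward by kinesin-2 and the IFT-A complex tied to the return by dynein-2. The BBSome, a coat of Bardet-Biedl syndrome proteins, takes membrane proteins out of the cilium. In rods and cones the cilium is enlarged into the outer segment, joined to the cell body by the connecting cilium, and many inherited retinal degenerations are due to genes of this structure.

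Levels are given as FPKM, in which fragments are scaled to transcript length and library size, summed over the transcripts of a gene. For the log2 ratio, 1 was added to each FPKM and mNRPCs were divided by retina, so a negative value means lower in mNRPCs, and it understates the difference for low values. A gene was counted as lower or higher when this ratio was at least 1 in size, that is 2-fold. Depth was estimated from the lowest FPKM values at 6.46e+06 fragments for mNRPCs and 5.07e+06 for retina. At these depths 3 fragments of a gene of 2000 bases came to 0.232 FPKM in mNRPCs and 0.296 FPKM in retina, and a level at or under 3 fragments was read as near the limit of detection. Ranges given after a fold are 95% counting intervals from estimated fragments, and they cover counting error only.

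Cell type markers were used to check the labels. All 12 rod markers were lower in mNRPCs, where they summed to 19.5 FPKM against 21691 FPKM in retina. None was listed at 0 in mNRPCs, and each was between 0.00702% and 0.641% of its retina level. The 8 cone markers summed to 1.11 FPKM in mNRPCs and to 958 FPKM in retina, with 2 listed at 0 in mNRPCs (Pde6h and Cnga3). Of the 14 markers of cells with motile cilia, 5 reached 1 FPKM in either library, and the list summed to 3.30 FPKM in mNRPCs and 12.7 FPKM in retina. Foxj1, the master factor of motile cilia, was at 0.143 FPKM in mNRPCs and 3.46 FPKM in retina. Its mNRPC level was near the limit of detection, and 11 of the 14 markers were at or under that limit in mNRPCs. Ccno, Rsph1 and Mcidas went the other way, within 2-fold, with log2 ratios of 0.88, 0.37 and 0.23. Markers of Müller glia (6 of 6 lower, 35.8 against 1800 FPKM), of inner retinal neurons (8 of 10 lower, 41.5 against 295 FPKM) and of pigment epithelium (3 of 5 lower, 0.207 against 67.5 FPKM) had the lower sum in mNRPCs too. The neuron marker Tfap2a went the other way, with 31.3 FPKM in mNRPCs and 7.08 FPKM in retina, and without it the neuron markers summed to 10.2 FPKM in mNRPCs and 288 FPKM in retina.

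All 37 genes were in the table, and all reached 1 FPKM in at least 1 library. Of these, 21 (56.8%) were at least 2-fold lower in mNRPCs, none was 2-fold higher and 16 lay within 2-fold. Over the 13777 genes compared, 30.0% were lower, 24.5% were higher, and the median log2 ratio was −0.12. The median log2 ratio of the 37 genes was −1.20. Against this background, the share of cilium genes that were lower was larger and the share that were higher was smaller. The call was closest for Bbs12, just past the limit at a log2 ratio of −1.03, and for Ift122, just inside it at −0.92. Under trimmed mean scaling of the libraries Bbs12 was inside the limit (−0.97). Ift122 was past it with 0.1 FPKM added in place of 1 (−1.01). It was also past it with each library rescaled to the same FPKM sum (−1.45) and without rod and cone markers in that sum (−1.42).

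**Figure D1:**
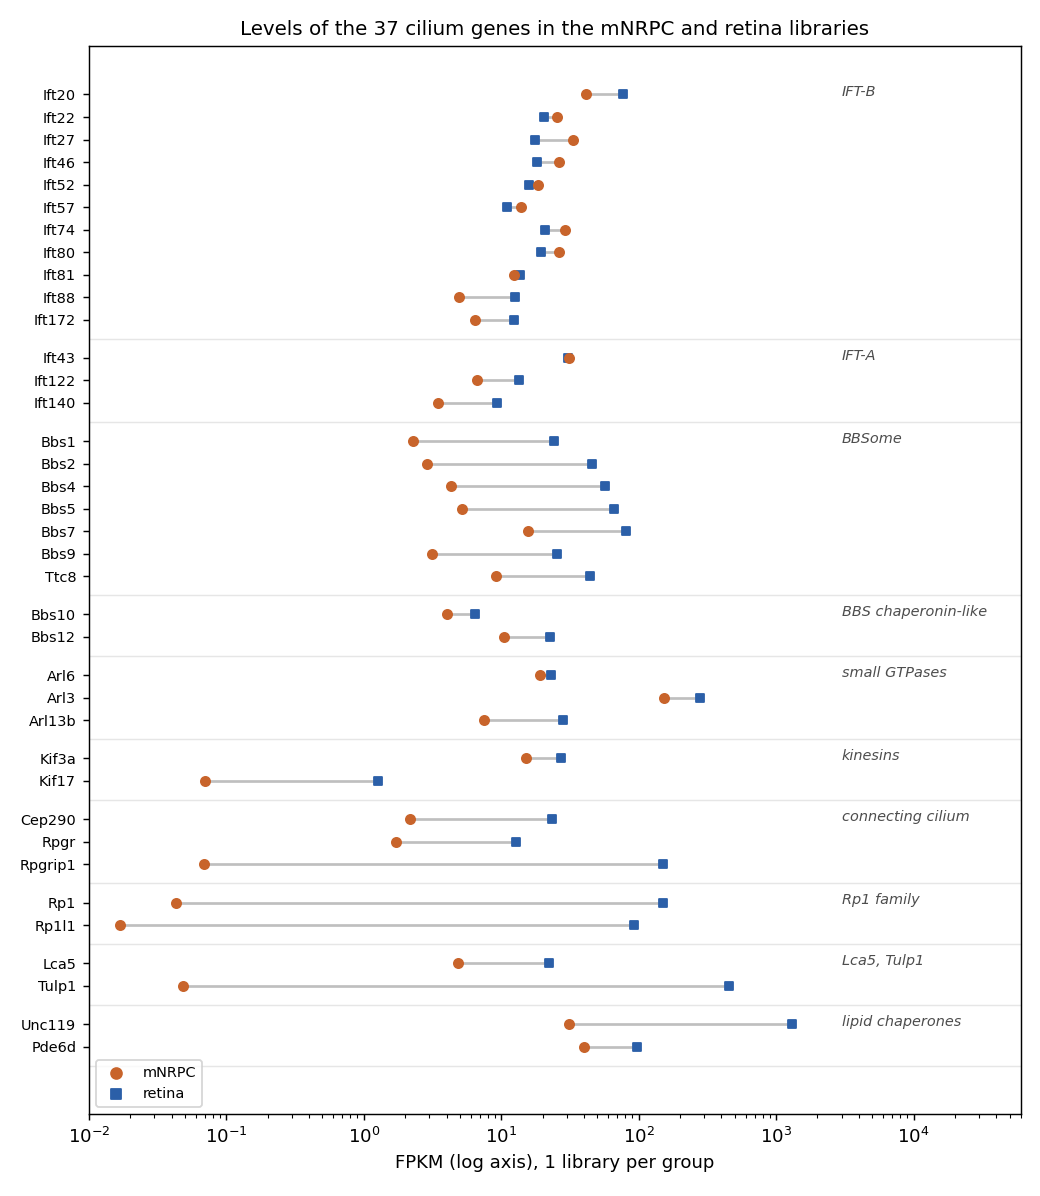
Level of each of the 37 cilium genes in FPKM on a log axis, with a circle for the mNRPC library and a square for the retina library, grouped by role. The 7 BBSome genes sit between 2.28 and 15.6 FPKM in mNRPCs and between 24.2 and 80.9 FPKM in retina, while Rpgrip1, Rp1, Rp1l1 and Tulp1 fall below 0.07 FPKM in mNRPCs.

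The IFT-B complex was present in both libraries at similar levels. Its 11 genes ranged from 4.90 to 41.5 FPKM in mNRPCs and from 11 to 76.8 FPKM in retina, and their summed level was 239 FPKM in each library. The median log2 ratio was 0.30, which turned to −0.19 when each library was rescaled to the same FPKM sum and to −0.26 when rod and cone markers were left out of that sum. There was 1 gene (9.09%) past 2-fold, lower in mNRPCs, against 30.0% of all genes. In each of these settings 3 were lower (Ift20 and Ift172 in addition), where 42.4% and 40.3% of all genes were. Ift20, which also has a pool at the Golgi, was the most abundant, with 41.5 FPKM in mNRPCs and 76.8 FPKM in retina. Ift27, a Rab-like GTPase of the complex, had the highest log2 ratio of all 37 genes at 0.89, with 33.4 FPKM in mNRPCs and 17.6 FPKM in retina (1.91-fold, 1.48 to 2.46). Ift22, a further small GTPase of IFT-B, was at 25.5 FPKM in mNRPCs and 20.5 FPKM in retina. Ift74 and Ift81 bind tubulin together. Ift74 was at 29.2 FPKM in mNRPCs and 20.7 FPKM in retina, and Ift81 at 12.4 FPKM and 13.7 FPKM.

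Ift46 stood at 26.4 FPKM in mNRPCs and 18.1 FPKM in retina, and Ift52, a core subunit, at 18.5 FPKM and 15.9 FPKM. Ift57 was at 13.9 FPKM in mNRPCs and 11 FPKM in retina, and Ift80 at 26.5 FPKM and 19.5 FPKM. Each of these 4 subunits had the higher FPKM in mNRPCs, within 2-fold, but of all 11 only 2 were above 0 on the log2 scale after the rescaling and 1 without rod and cone markers. Ift88, whose loss leaves mouse cells without cilia, was the IFT-B gene past 2-fold in the values as deposited, with 4.90 FPKM in mNRPCs and 12.7 FPKM in retina (2.59-fold, 2.02 to 3.33). With curated transcripts only, its log2 ratio was −0.77, inside the limit. Ift172 was also lower, at 6.49 FPKM against 12.4 FPKM, a log2 ratio of −0.84.

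The 3 IFT-A genes had a median log2 ratio of −0.92. It was −1.45 with the rescaling and −1.42 without rod and cone markers, and turned to 0.03 with curated transcripts. Ift43 was at 31.2 FPKM in mNRPCs and 30.7 FPKM in retina, and Ift122 at 6.64 FPKM and 13.5 FPKM. Ift140 was at 3.47 FPKM in mNRPCs and 9.26 FPKM in retina (2.67-fold, 2.14 to 3.33), a log2 ratio of −1.20 that turned to 0.20 when only curated transcripts were summed. Over the 14 IFT genes together, 8 had the higher FPKM in mNRPCs and 6 the higher FPKM in retina, and 2 (14.3%) were 2-fold lower, against 30.0% of all genes. The count was 5 with the rescaling and without rod and cone markers, where 42.4% and 40.3% of all genes were lower, and 0 with curated transcripts. Their median log2 ratio was 0.12, and it turned to −0.38 with the rescaling and to −0.44 without rod and cone markers. All genes compared had a median of −0.68 and −0.64 under those settings, in place of −0.12. The IFT median thus lay above that of all genes by 0.24 as deposited, by 0.30 with the rescaling and by 0.20 without the markers.

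The BBSome differed from the IFT complexes in this comparison. All 7 BBSome subunits among the 37 genes were lower in mNRPCs, against 30.0% of all genes compared. The log2 ratios of the 7 ran from −3.61 to −2.16, with a median of −2.94. Bbip1, the small subunit outside the 37 genes, was not lower, with 35.6 FPKM in mNRPCs and 25 FPKM in retina, a log2 ratio of 0.49 that was −0.01 with the rescaling, −0.08 without rod and cone markers and −0.27 with curated transcripts. With Bbip1 the median of the 8 subunits was −2.82. Bbip1 was singled out after its value was seen. The highest BBSome value, −2.16, was below the lowest IFT value, −1.21. The 7 subunits summed to 42.6 FPKM in mNRPCs and 345 FPKM in retina, and with Bbip1 the sums were 78.1 FPKM and 370 FPKM. All 7 stayed lower under each scaling tried, with medians between −3.60 and −2.89, where 29.1% to 42.4% of all genes were lower. With curated transcripts 6 of the 7 were lower (median −3.19), and with accessions matched by version 3 of the 4 left (median −2.57). Of all genes, 27.9% and 28.9% were lower there. In both of these settings Bbs9, at 0.52, lay within the range of the IFT genes, so the separation of the complexes was lost. The part of rods and cones in this difference was not tested.

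Bbs2 had the lowest log2 ratio of the complex, with 2.87 FPKM in mNRPCs and 46.1 FPKM in retina (16.1-fold, 12.3 to 21.5). Bbs4, a subunit linked to the centriolar satellites, was at 4.34 FPKM against 57.1 FPKM (13.1-fold, 10.3 to 17). Bbs5, which binds phosphoinositides, was at 5.17 FPKM against 66.7 FPKM (12.9-fold, 9.60 to 17.7). Bbs1, the subunit that contacts Arl6, was at 2.28 FPKM in mNRPCs and 24.2 FPKM in retina (10.6-fold, 8.43 to 13.5). These 4 subunits were all more than 10-fold higher in retina, and their counting intervals overlap.

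Bbs7 was the most abundant of the 7 BBSome members in both libraries, with 15.6 FPKM in mNRPCs and 80.9 FPKM in retina (5.20-fold, 4.55 to 5.96). Ttc8, also called Bbs8, was at 9.22 FPKM against 44.6 FPKM (4.84-fold, 4.0 to 5.89). Bbs9 was at 3.12 FPKM against 25.6 FPKM (8.20-fold, 6.35 to 10.7). The Bbs9 value rests on predicted transcripts, and with curated transcripts alone its log2 ratio turned from −2.69 to 0.52.

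The order of the complexes within each library does not depend on scaling between libraries. In retina the BBSome median, 46.1 FPKM, was 2.76 times the median of the 14 IFT genes, 16.7 FPKM. In mNRPCs the BBSome median, 4.34 FPKM, was 0.197 times the IFT median, 22.0 FPKM. The quotient thus differed 14-fold between the libraries. Of the 98 pairs of a BBSome and an IFT gene, the BBSome gene was the higher in 90 pairs in retina and in 13 in mNRPCs. All 7 BBSome genes were above the IFT median in retina, and 0 were above it in mNRPCs. With Bbip1 counted, 8 of 8 were above it in retina and 1 of 8 in mNRPCs, and the quotient differed 12.6-fold.

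**Figure D2:**
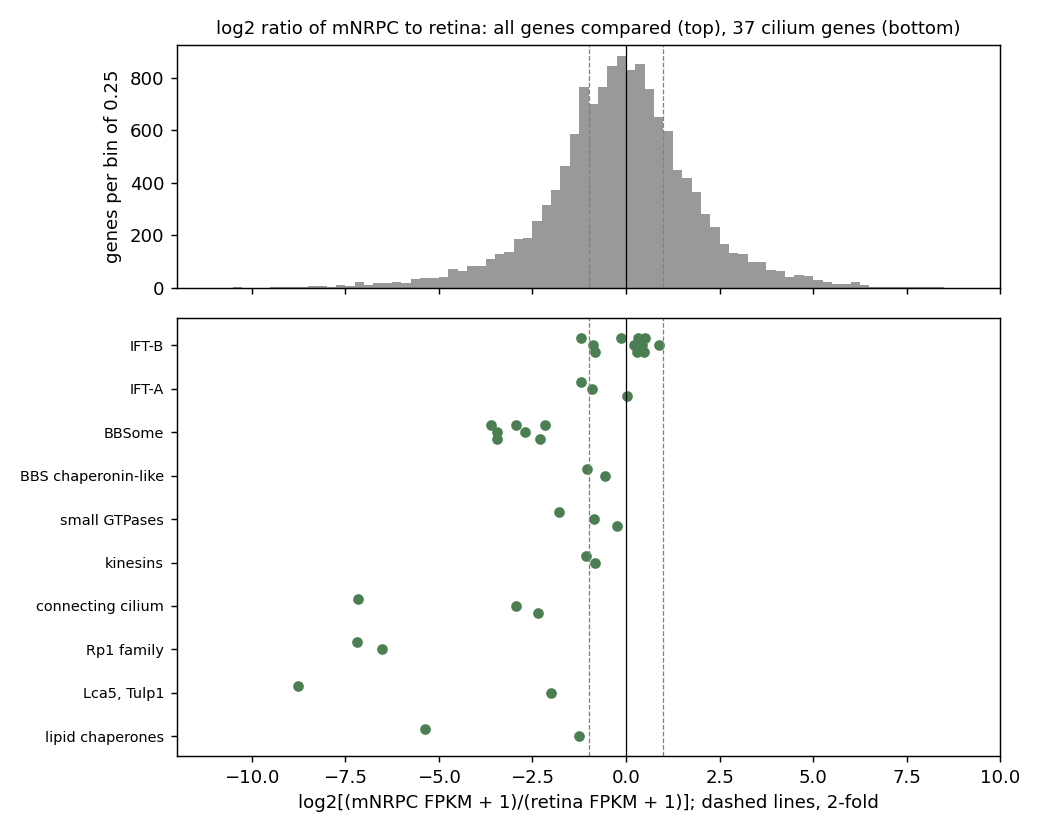
Number of genes per log2 ratio bin for the 13777 genes compared (top) and the log2 ratio of each of the 37 cilium genes by role (bottom), with dashed lines at 2-fold. The BBSome genes lie between −3.61 and −2.16, apart from the IFT genes between −1.21 and 0.89 (except Bbs9 when curated transcripts alone are used), and the IFT median of 0.12 turns negative when each library is rescaled to the same sum or rod and cone markers are left out.

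Bbs10 and Bbs12, chaperonin-like proteins needed to assemble the BBSome, were at 4.03 FPKM and 10.5 FPKM in mNRPCs and at 6.48 FPKM and 22.6 FPKM in retina. Their folds were 1.61 (1.17 to 2.23) and 2.15 (1.76 to 2.62). Arl6, the GTPase that recruits the BBSome to membranes, was at 19.3 FPKM in mNRPCs and 23.2 FPKM in retina, a log2 ratio of −0.25. Of 6 further genes listed with the BBSome, Bbip1 alone is a subunit. None of the 6 was lower and 2 (33.3%) were higher, against 30.0% and 24.5% of all genes. With the rescaling or without rod and cone markers 1 was lower, where 42.4% and 40.3% of all genes were. The 2 higher genes were Rab3ip, at 58.5 FPKM in mNRPCs and 12 FPKM in retina, and Tulp3. Tulp3, which loads receptors onto IFT-A, was at 51.9 FPKM in mNRPCs and 6.64 FPKM in retina, and Mkks, the chaperonin-like partner of Bbs10 and Bbs12, had the lowest log2 ratio of that list at −0.92.

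Arl3 and Arl13b act in the delivery of lipid-modified proteins to the cilium, Arl13b as the exchange factor of Arl3. Arl3 was the most abundant of the 37 genes in mNRPCs, with 152 FPKM, and was at 278 FPKM in retina (1.83-fold, 1.67 to 2.0). Arl13b was at 7.52 FPKM in mNRPCs and 28.2 FPKM in retina (3.75-fold, 3.14 to 4.48), and its log2 ratio of −1.78 turned to 0.71 with curated transcripts alone. Pde6d, which carries prenylated cargo that Arl3 releases, was at 40.1 FPKM against 97.7 FPKM (2.43-fold, 2.11 to 2.81).

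Unc119, which carries myristoylated cargo such as the transducin alpha subunit, was the most abundant of the 37 genes in retina. It was at 31.0 FPKM in mNRPCs and 1315 FPKM in retina (42.4-fold, 37.5 to 48.0), a log2 ratio of −5.36. Its level in mNRPCs rested on an estimated 267 fragments and was 2.36% of that in retina, above the 0.641% reached by the highest of the 12 rod markers. The ratio of Unc119 to Pde6d was 0.773 in mNRPCs and 13.5 in retina. Against its paralogue Unc119b, at 27.1 FPKM in mNRPCs and 16.6 FPKM in retina, the ratio was 1.15 in mNRPCs and 79.2 in retina. Rp2, the GTPase-activating protein of Arl3, was the only one of 7 other lipid cargo genes past 2-fold, with 18 FPKM in mNRPCs and 5.05 FPKM in retina. That list thus had 14.3% higher and none lower as deposited, against 24.5% and 30.0% of all genes.

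Kif3a, a motor subunit of kinesin-2, was at 15.1 FPKM in mNRPCs and 27.4 FPKM in retina (1.82-fold, 1.54 to 2.15). Kif17, an accessory kinesin-2, was low in both libraries, at 0.0699 FPKM in mNRPCs and 1.27 FPKM in retina. The mNRPC level came from an estimated 1.21 fragments, so its fold of 18.1 had an interval from 3.31 to 431. Of 8 further transport motor genes, 4 (50.0%) were lower and 2 (25%) were higher, against 30.0% and 24.5% of all genes, from Kif3c at a log2 ratio of −2.07 to Tctex1d2, a dynein-2 light chain, at 1.61.

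Cep290, Rpgr, Rpgrip1 and Lca5, the members with roles at the connecting cilium, were lower in mNRPCs. Cep290, which spans the space between microtubules and membrane, was at 2.18 FPKM in mNRPCs and 23.5 FPKM in retina (10.8-fold, 8.85 to 13.2). Rpgr, a regulator bound to the connecting cilium, was at 1.71 FPKM against 12.8 FPKM (7.52-fold, 5.15 to 11.3), from an estimated 30.8 fragments in mNRPCs. Lca5, which encodes lebercilin, was at 4.81 FPKM against 22.2 FPKM (4.61-fold, 3.68 to 5.82). Cep290, Rpgr and Lca5 were each lower by more than any IFT gene, yet remained well above the limit of 3 fragments in mNRPCs.

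Rpgrip1, the anchor of Rpgr in the connecting cilium, was lower still. Its level was 151 FPKM in retina and 0.0684 FPKM in mNRPCs, where it rested on about 2.19 fragments, a ratio of 2211 (643 to 15947). Its mNRPC level was 0.0452% of that in retina. Rpgrip1l, the paralogue found in cilia of many tissues, was at 4.07 FPKM in mNRPCs and 3.58 FPKM in retina. The pair thus lay at 151 FPKM and 3.58 FPKM in retina and in the opposite order in mNRPCs.

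Rp1 and Rp1l1, doublecortin-domain proteins of the outer segment axoneme, were likewise near the limit of detection in mNRPCs. Rp1 was at 0.0430 FPKM in mNRPCs and 150 FPKM in retina, a ratio of 3492 (941 to 31085) on an estimated 1.91 fragments. Rp1l1 was at 0.0168 FPKM against 92.4 FPKM, a ratio of 5504, on an estimated 0.725 fragments. Tulp1, a tubby-like protein of photoreceptors needed for transport to the outer segment, had the lowest log2 ratio of all 37 genes at −8.76. Its level was 454 FPKM in retina and 0.0487 FPKM in mNRPCs, about 0.658 fragments, a ratio of 9329. The counting intervals ran from 784 to 729307 for Rp1l1 and from 1236 to 1946095 for Tulp1, so the upper ends are hardly set by the data.

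By textbook knowledge, Rpgrip1, Rp1, Rp1l1 and Tulp1 are known mainly from photoreceptors, and the other 33 genes are used more widely. The 4 photoreceptor genes had a median log2 ratio of −7.17, and the 33 general genes a median of −1.03, a difference of −6.13. Of the general genes 17 (51.5%) were lower, against 30.0% of all genes compared. The 4 photoreceptor genes were between 0.0107% and 0.0452% of their retina level, each from at most 2.19 estimated fragments in mNRPCs. These shares were below the medians of the 12 rod markers, 0.0543%, and of the 8 cone markers, 0.0587%, but at so few fragments they cannot be set apart from them. The part of the number of rods and cones in each library in this result was not tested. With Unc119, Lca5 and Rpgr added to the photoreceptor genes, their median was −6.52 and the range reached from −8.76 to −2.0.

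Several members were represented by different transcripts in the 2 libraries. Of the 37 genes, 25 had several transcript rows and 22 had at least 2 rows at 1 FPKM or more. The most abundant transcript differed between the libraries for 8 genes, of which Ift140, Bbs9, Ttc8, Arl13b, Rpgr and Lca5 were above the limit of detection in both, and Kif17 and Rpgrip1 were not. Reads shared by transcripts are divided by estimation, so these shares are less certain than gene sums. How often the leading transcript differed over all genes was not counted, so these switches cannot be called particular to cilium genes.

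For Ttc8 the 2 curated transcripts differ in exon 2 of 15, an exon of 30 bases (10 codons) known from retina. They also differ in the length of their first exon (172 and 210 bases) and last exon (781 and 775 bases). The reads that separate them thus need not all come from the short exon. The transcript with this exon was at 0.903 FPKM in mNRPCs and 30.3 FPKM in retina, and the transcript without it at 8.31 FPKM and 14.3 FPKM. By these estimates the exon belonged to 9.80% of Ttc8 in mNRPCs and to 67.9% in retina. It lies in the coding sequence at chr12:98937120-98937149 on the plus strand (GRCm38, GENCODE M21) and is shown in capitals between 30 coding bases on each side, since the Ttc8 difference was larger in the transcript that holds it.
Ttc8 exon 2: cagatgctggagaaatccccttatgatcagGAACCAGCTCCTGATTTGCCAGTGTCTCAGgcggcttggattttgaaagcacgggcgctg

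Kif3a has an exon of 9 bases (3 codons) that only some of its transcripts hold. It is exon 10 of 18, at chr11:53590717-53590725 on the plus strand. Transcripts with it held 14.1% of Kif3a in mNRPCs (2.12 FPKM) and 48.6% in retina (13.3 FPKM). The transcript without it was at 12.4 FPKM in mNRPCs and 12.3 FPKM in retina. The libraries thus differed in the Kif3a transcripts with the exon and hardly in the transcript without it. That transcript and the one without the exon also differ in their last exon, of 957 and 95 bases. The reads that separate them need not come from the short exon. Ift43 was a contrast to Ttc8. Its exon 4 of 9 (33 bases, 11 codons, chr12:86138793-86138825, plus strand) was in 90.4% of its FPKM in mNRPCs and 100% in retina. Both exons are shown in capitals between 30 coding bases on each side.
Kif3a exon 10: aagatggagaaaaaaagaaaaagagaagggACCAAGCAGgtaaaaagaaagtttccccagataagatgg
Ift43 exon 4: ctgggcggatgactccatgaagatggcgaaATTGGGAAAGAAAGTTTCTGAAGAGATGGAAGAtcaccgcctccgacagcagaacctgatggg

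For Rpgr the curated transcript that led in retina was at 8.88 FPKM there, 69.2% of the gene, and was listed at 0 in mNRPCs. The transcript that held all of the Rpgr signal in mNRPCs reached 1.71 FPKM from about 30.8 fragments, and in retina it stood at 1.62 FPKM, 12.6% of the gene.

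The other switches rested on predicted transcripts or on less of the gene. The predicted transcript that led in retina held 59.3% of Ift140 there and 8.79% in mNRPCs. For Bbs9 the predicted retina transcript held 42.2% in retina and 1.98% in mNRPCs, and for Arl13b 64.7% and 7.52%. For Lca5 a curated transcript held 53.1% in retina and 10.8% in mNRPCs. The leading curated transcript of Ift140 was at 3.04 FPKM in mNRPCs and 2.53 FPKM in retina, and that of Arl13b at 4.80 FPKM and 2.54 FPKM, so the lower sums of these genes in mNRPCs came from predicted transcripts.

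**Figure D3:**
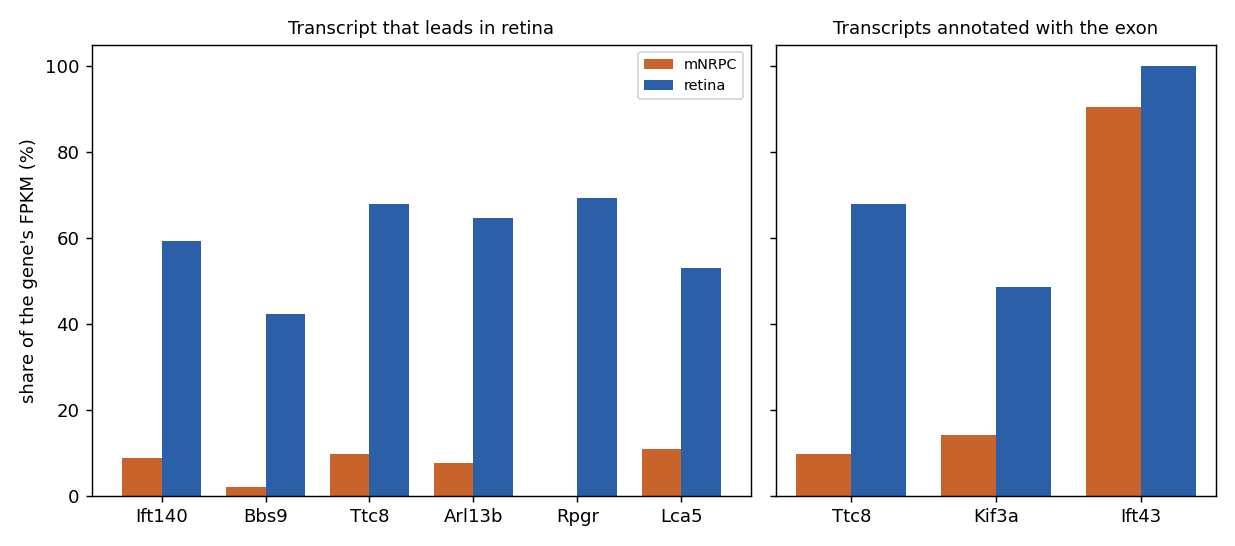
Share of a gene's FPKM in percent held by the transcript that leads in retina (left) and by all transcripts annotated with the exons described (right), with 1 bar for the mNRPC and 1 for the retina library. The Ttc8 share is 9.80% in mNRPCs and 67.9% in retina, the Rpgr bar on the left is at 0 in mNRPCs, and Ift43 is at 90.4% and 100%.

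Promoters of ciliary genes are often bound by RFX transcription factors. The letters GTTGCC, the core of an RFX site, were searched on both strands (GGCAAC on the other) in the 250 bases before each start in the RefSeq promoters of GRCm38.p6. They occurred in 7 of the 32 members with a promoter in that table (21.9%) and in 3195 of 27025 genes (11.8%). The members were Ift27, Ift57, Ift140, Bbs7, Arl13b, Kif3a and Kif17, which had log2 ratios from −2.31 to 0.89. A match is only a description of the sequence. Windows that overlap no annotated exon are shown for 4 members of different complexes, with the match in capitals and written along the strand of the gene. They lie at chr17:25015953-25016006 (plus strand, 109 bases before the start of Ift140), chr3:36613481-36613534 (minus strand, 121 before Bbs7), chr16:62847192-62847245 (minus strand, 181 before Arl13b) and chr4:138262154-138262207 (plus strand, 73 before Kif17).
Ift140: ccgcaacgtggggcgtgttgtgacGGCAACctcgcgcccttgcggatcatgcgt
Bbs7: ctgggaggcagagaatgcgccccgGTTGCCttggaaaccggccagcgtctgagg
Arl13b: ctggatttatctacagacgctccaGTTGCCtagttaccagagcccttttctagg
Kif17: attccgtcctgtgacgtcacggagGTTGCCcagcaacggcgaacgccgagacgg

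Of the RFX factors themselves, Rfx1 was at 4.54 FPKM in mNRPCs and 18.3 FPKM in retina, and Rfx3, which acts on ciliary genes, at 3.12 FPKM and 7.45 FPKM. Rfx5 and Rfx7 lay within 2-fold. Crx and Otx2, factors that switch on photoreceptor genes, were at 0.0977 FPKM and 0.0713 FPKM in mNRPCs, both at or under 3 fragments, and at 467 FPKM and 119 FPKM in retina.

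The remaining genes of the pathway were counted by the same 2-fold rule. The minimum of 1 FPKM set for all genes compared was not applied to them, and 78 of the 81 reached it. Of 81 further cilium genes, 26 (32.1%) were lower and 13 (16%) were higher, with a median log2 ratio of −0.26 (−0.76 with the rescaling and −0.79 without rod and cone markers). The 61 of them with general roles had 16 lower (26.2%) and 8 higher (13.1%). Their summed level was 944 FPKM in mNRPCs and 988 FPKM in retina. Over all genes 30.0% were lower and 24.5% higher. Of the 81 genes, 35 were lower with the rescaling and without rod and cone markers, where 42.4% and 40.3% of all genes were lower.

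Of 9 further IFT subunits 2 (22.2%) were lower and 1 (11.1%) was higher, against 30.0% and 24.5% of all genes. With the rescaling and without rod and cone markers 4 were lower, where 42.4% and 40.3% of all genes were. The log2 ratios ran from −1.52 for Ttc30b to 3.10 for Hspb11 (Ift25), the partner of Ift27. Hspb11 was at 50.2 FPKM in mNRPCs and 4.96 FPKM in retina. Of 18 further transition zone genes 5 (27.8%) were lower and 1 (5.56%) was higher, near or below the shares of all genes. With the rescaling 8 were lower and without rod and cone markers 7, against the same 42.4% and 40.3% of all genes. Ahi1, a Joubert syndrome gene, had the lowest ratio there, with 3.46 FPKM in mNRPCs and 66.8 FPKM in retina, and B9d1 had the highest, at 1.48. Of 13 basal body genes 5 (38.5%) were lower and 1 (7.69%) was higher, against 30.0% and 24.5% of all genes. With the rescaling and without rod and cone markers 6 were lower and none was higher. Of all genes, 42.4% and 40.3% were lower and 18.4% and 16.7% were higher in these settings. The log2 ratios of the 13 genes ran from −2.60 for Cep164 to 1.11 for Cep83, both of them distal appendage proteins of the mother centriole.

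Of 12 further genes of the photoreceptor cilium 9 were lower, where 30.0% of all genes were. The other 3 lay within 2-fold, and the median log2 ratio of the 12 genes was −4.31. Cdhr1, a cadherin at the base of the outer segment, was at 0.283 FPKM in mNRPCs and 208 FPKM in retina. Spata7, Cfap418 and Ttll5 were within 2-fold, at log2 ratios of 0.19, 0.07 and −0.08. The list with the highest median log2 ratio was that of cilium disassembly, at 3.55, with 5 of 8 genes higher (24.5% of all genes were) and 1 lower. Its members Aurka, the kinase that starts disassembly, and Plk1 were at 46.9 FPKM and 55.8 FPKM in mNRPCs and at 1.27 FPKM and 1.12 FPKM in retina. Both kinases also act in mitosis, as do Nek2 and Kif2c on this list. Kif2a, a depolymerising kinesin, was the gene that was lower, at a log2 ratio of −1.21.

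**Figure D4:**
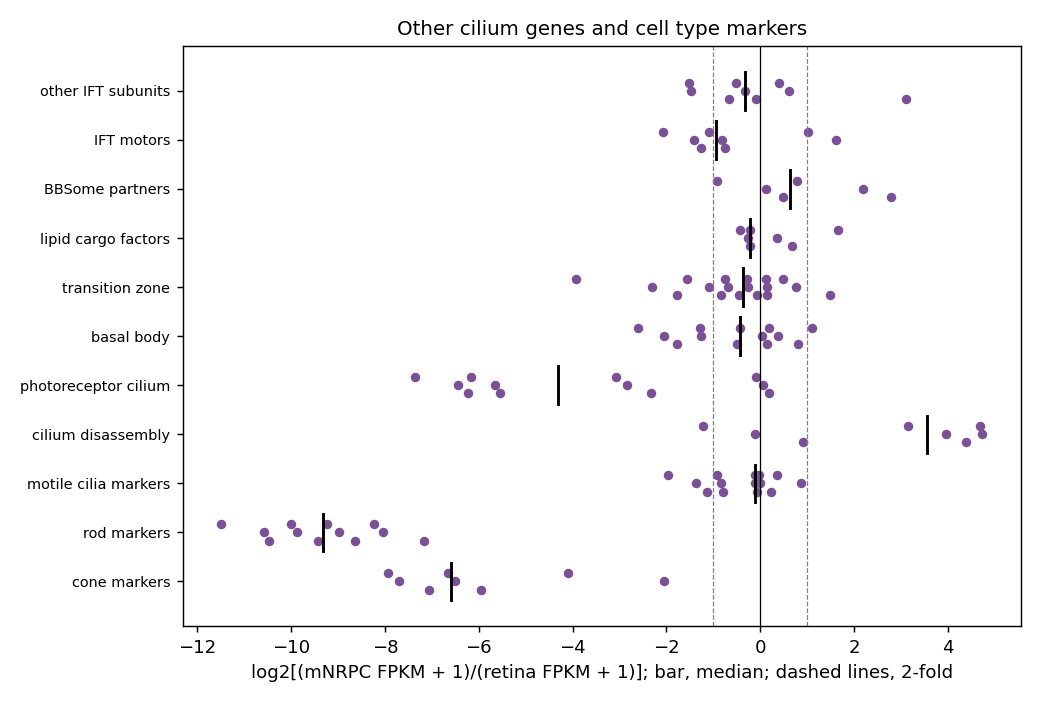
Log2 ratio of each gene in the lists of further cilium genes and of cell type markers, with a vertical bar at the median of each list and dashed lines at 2-fold. Further photoreceptor cilium genes have a median of −4.31 and rod markers one of −9.33, while cilium disassembly genes have a median of 3.55.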

How the data were processed

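RNA sequencing values of 1 mNRPC library and 1 retina library were used, grouped by the labels. The authors deposited FPKM values per RefSeq transcript. Their methods name Bowtie 2 for alignment and eXpress for FPKM, whereas the submitters' processing notes list TopHat2 2.0.10 and GRCm38.p3. Reads that fit several transcripts are divided by estimation, and a value listed at 0 can be a failed estimate. Values below 1e-06 were read as 0.

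Of 106754 rows, 69.6% were matched to a symbol without the accession version (RefSeq GRCm38.p6, GENCODE M21). They held 93.2% of the FPKM in mNRPCs and 89.9% in retina. Rows were summed per gene, 1 FPKM was added before log2, and genes with 1 FPKM or more in at least 1 library were compared. Genes in the lists were counted without this minimum. No counts were used. Depth came from the mode of low FPKM values times length and ranged from 6.40e+06 to 6.46e+06 and from 4.90e+06 to 5.50e+06 fragments with the shortest length allowed. Transcripts without a GENCODE length took the median length of their gene's other transcripts. Fold intervals were exact binomial intervals of the 2 estimated fragment numbers.

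All 37 genes are named, and of other lists the extremes and further genes chosen after their values were seen. The members and lists were chosen with earlier results of these data known. Alternatives were other pseudocounts, scalings, thresholds and row matching. Python 3.11.15, NumPy 2.4.6, SciPy 1.17.1, pandas 2.3.3 and matplotlib 3.10.9 were used, and the scripts were tested on simulated data.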

Additional observations from a re-analysis of the deposited data

How the results depend on the processing

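No paired analysis was possible because there was 1 library for each group, and neither could be left out. The settings were also applied, after the data were seen, to the IFT, BBSome, BBSome partner (Bbip1 with the BBSome) and further cilium genes. The median log2 ratio of the 37 genes was −1.76 with each library rescaled to the same sum, −0.87 with curated rows only, −0.77 with accessions matched by version and −1.63 without rod and cone markers. That of the general genes was −1.56 with the rescaling, −0.67 by version and −1.45 without rod and cone markers. That of the photoreceptor genes was −9.92 with a pseudocount of 0.1, −8.32 with the rescaling, −6.95 with curated rows, −6.73 by version and −6.52 with the wider list. Their difference was −8.83 with a pseudocount of 0.1, −6.76 with the rescaling, −5.74 without rod and cone markers and −5.62 with the wider list.

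Matching by version left 25 of the 37 genes, with 10 lower and 1 higher (Ift81, 1.37). Over all genes, 7500 were past 2-fold and 3489 were past a log2 ratio of 2. The rescaling made 42.4% of all genes lower and 18.4% higher, and leaving out rod and cone markers 40.3% and 16.7%, against 30.0% and 24.5%. Of the 37 genes, 27 were lower under each of these settings and 17 with curated rows, against 21. With curated rows 27.9% of all genes were lower. The log2 ratio turned to 0.20 for Ift140 and 0.52 for Bbs9 with curated rows and by version, and to 0.71 for Arl13b with curated rows. Of 247 alternative values of single members, 145 stayed within their counting error. The sign changed in 20 values, the 5 above and 15 of IFT genes that lay within 2-fold. Depth limits Rpgrip1, Rp1, Rp1l1, Tulp1 and Kif17, each at or under 3 estimated fragments in mNRPCs.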
